A study of Mus musculus with 4 samples.

Results

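Chr4-cl KO ES cells are mouse embryonic stem cells in which the Chr4-cl, a cluster of KRAB zinc finger protein (KRAB-ZFP) genes on chromosome 4, has been deleted. The data described here compare these cells in 2 media, with 2 of the 4 libraries of the study: KO cells in serum and KO cells after 1 week in 2i + Vitamin C. Both libraries carry the same deletion and differ by their labels in the medium alone. According to the methods of the study, the cells come from mice of a mixed strain background with a tamoxifen-inducible Cre at the Rosa26 locus. The serum medium held FCS and LIF. The other 2 libraries are WT ES cells in the same media and are used below only where the change in KO cells is set against them. There is 1 library per condition, so no difference below has a replicate check, and how many clones went into a library is not given in the sources used here. The assay was RRBS-seq, which cuts DNA with MspI to enrich stretches rich in CpG, converts unmethylated cytosines with bisulfite and sequences the rest. The comparison takes CpG sites that each file lists once and that have at least 10 reads in both KO libraries, which gave 437979 sites.

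In mammals, a methyl group is added to the cytosine of most CpG dinucleotides and is copied to the new strand after each round of replication. Stretches dense in CpG sites at gene starts are mostly free of it. Serum cultures of ES cells carry high methylation, whereas 2i, which blocks MEK and GSK3, lowers the activity of de novo and maintenance methylation, and Vitamin C is a cofactor that raises the activity of the TET enzymes that oxidise methylcytosine. Imprint control regions and some retrotransposons are known to keep methylation when the rest of the genome loses it, through KRAB-ZFPs that bind methylated DNA and recruit KAP1.

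The DNA at which the KO cells kept or lost most methylation is shown first. Each stretch is mm9 sequence, 5′ to 3′ on the strand named, and capitals mark the CpG sites compared in the KO libraries. Nap1l5 is an imprinted gene, and its promoter kept more methylation than most that were methylated in serum.

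Nap1l5, chr6:58856618-58856870, minus strand: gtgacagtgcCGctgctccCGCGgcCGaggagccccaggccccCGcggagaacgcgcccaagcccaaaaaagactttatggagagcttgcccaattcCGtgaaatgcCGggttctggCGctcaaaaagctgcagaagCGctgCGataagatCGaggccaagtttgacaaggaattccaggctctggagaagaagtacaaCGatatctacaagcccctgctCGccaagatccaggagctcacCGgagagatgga

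Across the 14 sites of the Nap1l5 stretch, levels ran from 86.8% to 98.3% in serum and from 45.5% to 88.6% in 2i + Vitamin C. Fkbp6 and Asz1, which act in the germ line, and Mb, which encodes the oxygen store of muscle, are shown as promoters that lost most of their methylation.

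Fkbp6, chr5:135825553-135825762, minus strand: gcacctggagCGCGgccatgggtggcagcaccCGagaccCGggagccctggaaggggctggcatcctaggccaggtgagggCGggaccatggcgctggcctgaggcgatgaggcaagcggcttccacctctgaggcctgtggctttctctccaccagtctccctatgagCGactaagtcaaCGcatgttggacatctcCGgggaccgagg
Asz1, chr6:18059045-18059169, minus strand: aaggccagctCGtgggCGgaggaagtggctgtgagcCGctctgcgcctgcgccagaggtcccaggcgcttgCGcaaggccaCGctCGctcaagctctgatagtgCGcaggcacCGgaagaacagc
Mb, chr15:76881306-76881449, minus strand: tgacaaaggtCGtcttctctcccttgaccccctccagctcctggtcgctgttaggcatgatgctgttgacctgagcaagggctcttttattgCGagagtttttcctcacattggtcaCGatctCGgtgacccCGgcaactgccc

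The 8 compared sites of the Fkbp6 stretch ran from 83.1% to 95% in serum and from 10.8% to 35.4% in 2i + Vitamin C, so the media did not overlap. In the Asz1 stretch, 1 of 8 sites was at 0 in both media, and the highest site was at 93.2% in serum and 11.8% in 2i + Vitamin C. The 5 sites of the Mb stretch ran from 90% to 96.6% and from 0 to 23.5%. The last stretches come from an ETn and an RLTR4 retrotransposon and from the 2 windows of 1 kb that kept the highest level.

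ETn element, chr4:155291371-155291535, plus strand: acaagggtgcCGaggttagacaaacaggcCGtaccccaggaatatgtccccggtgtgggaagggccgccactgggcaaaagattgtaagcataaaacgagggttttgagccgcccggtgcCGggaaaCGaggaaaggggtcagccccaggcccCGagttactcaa
RLTR4 element, chr4:15165854-15166118, minus strand: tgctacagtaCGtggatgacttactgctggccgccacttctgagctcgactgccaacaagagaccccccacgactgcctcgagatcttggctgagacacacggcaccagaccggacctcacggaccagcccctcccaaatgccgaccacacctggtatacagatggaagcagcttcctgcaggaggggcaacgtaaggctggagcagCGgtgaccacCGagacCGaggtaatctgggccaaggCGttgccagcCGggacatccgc
Window on chromosome 5, chr5:4383068-4383180, plus strand: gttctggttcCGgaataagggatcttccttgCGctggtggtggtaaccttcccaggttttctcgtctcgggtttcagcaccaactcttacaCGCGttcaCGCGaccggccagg
Window on chromosome 11, chr11:13566231-13566366, plus strand: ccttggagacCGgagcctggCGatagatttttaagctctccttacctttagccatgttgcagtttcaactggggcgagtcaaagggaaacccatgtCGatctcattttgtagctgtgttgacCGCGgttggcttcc

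The 5 sites of the ETn stretch had a mean of 94.4% in serum and 77.7% in 2i + Vitamin C, and the 6 sites of the RLTR4 stretch 93.2% and 14.5%. The window on chromosome 5 had a mean of 99.1% over 6 sites in serum and 96.4% in 2i + Vitamin C. For the window on chromosome 11 the means over 5 sites were 97.0% and 95.8%.

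The libraries differ in depth and in how their files were made. Read counts summed over CpG sites were 88376738 in KO serum and 42684672 in KO 2i + Vitamin C, and over the compared sites the median coverage was 64 and 37 reads. The file of KO 2i + Vitamin C consists of 2 tables joined end to end, as does that of WT serum, whereas the other 2 files are single tables. Within the KO line, file route and medium therefore cannot be told apart. The second tables held few rows of at least 10 reads, 54 in KO 2i + Vitamin C and 59 in WT serum. Sites of at least 10 reads numbered 591877 and 648759 in these libraries. In WT cells the routes are the other way round. At sites with at least 10 reads in all 4 libraries, the WT means were 27.4% in serum and 13.9% in 2i + Vitamin C. The part of file route in the change of either line was not tested. At mitochondrial CpG sites, where little methylation is expected, 1.71% of 820 reads were methylated in KO serum and 0.985% of 609 reads in KO 2i + Vitamin C. WT serum stood apart with 9.43% of 1887 reads, against 1.64% of 916 reads in WT 2i + Vitamin C, and the part of this in the values that use WT was not tested. In the span of the Chr4-cl genes the KO libraries had 815 and 1124 reads, against 83433 and 102482 in the WT libraries. RRBS does not measure expression, so the ES cell label could not be checked by marker transcripts. Of 7 listed ES cell markers only Tdgf1 and Utf1 had a measured promoter. These promoters were at 2.48% and 2.04% in serum and at 0.860% and 1.22% in 2i + Vitamin C.

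Methylation was lower in 2i + Vitamin C across the genome of KO cells. The mean over the 437979 sites was 30.4% in serum and 12.1% in 2i + Vitamin C, a difference of -18.28 percentage points, and the median difference was -3.57 points. By Fisher's exact test on the reads of each site, with Benjamini-Hochberg adjustment and a change of at least 20 points, 125371 sites (28.6%) were lower in 2i + Vitamin C and 130 (0.0297%) were higher. These tests compare 2 libraries and not the conditions. Reads were not marked by molecular identifiers and a read covers several sites, so p-values and intervals here cover counting error only.

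**Figure D1:**
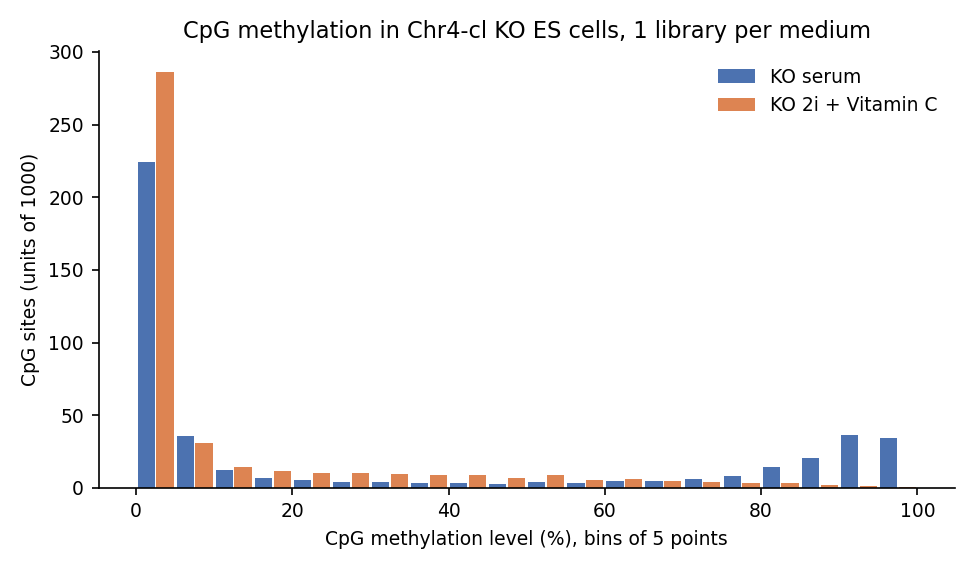
Number of CpG sites, drawn in units of 1000, in each 5-point bin of methylation level (%) in KO serum (blue) and KO 2i + Vitamin C (orange), 437979 sites in each, 1 library per medium. Sites under 10% made up 59.4% of the serum library and 72.5% of the 2i + Vitamin C library, and sites of at least 80% made up 24.0% and 1.70%.

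The histogram of site levels has a peak near 0 in both media and a further peak near 100% in serum alone. In serum 105186 sites (24.0%) were at least 80% methylated, and in 2i + Vitamin C 7449 sites (1.70%). Sites under 10% numbered 260004 in serum and 317616 in 2i + Vitamin C. Gain from a low level was rare: of the 260004 sites under 10% in serum, 36 were at 50% or more in 2i + Vitamin C. The mean level of the 77058 sites with no methylated read in serum was 1.14% in 2i + Vitamin C.

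How much methylation was left differed with the level in serum. Sites above 40% and up to 60% in serum had a mean of 9.02% in 2i + Vitamin C, which is 17.8% of their serum mean. Sites above 60% and up to 80% had a mean of 18.3%, and sites above 80% and up to 90% a mean of 31.3%. In the 68557 sites above 90% the mean was 47.1%, or 49.5% of the serum mean, and 45.9% of them were still at 50% or more. Partial loss was the common outcome among the 105186 sites of at least 80% in serum. In 2i + Vitamin C, 8.38% of them were under 10%, 55% lay from 10% to 50%, 29.7% from 50% to 80% and 6.93% at 80% or more. With at least 30 reads in both libraries, where a site's level is measured more closely, these shares were 6.53%, 58.3%, 29.4% and 5.75% of 45509 sites.

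**Figure D2:**
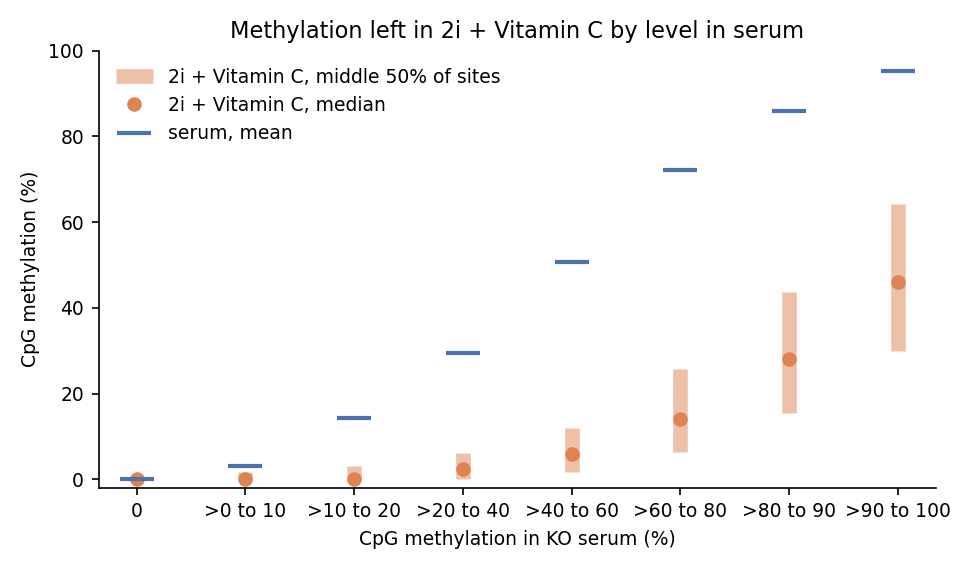
CpG methylation (%) by level in KO serum (bins on the x axis); blue bars are the serum means, orange points the medians in KO 2i + Vitamin C and pale bars the middle 50% of sites. The median in 2i + Vitamin C was 6% for sites above 40% and up to 60% in serum, 28% above 80% and up to 90%, and 46.2% above 90%.

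Gene starts were low in both media, and intergenic DNA kept the most. At the 209372 sites within 1 kb of a gene start the mean was 4.50% in serum and 1.60% in 2i + Vitamin C. Exons had means of 50.5% and 17.3%, introns 62.3% and 22.9%, and intergenic sites 62.7% and 29.1%. Introns and intergenic DNA thus had similar means in serum and were apart in 2i + Vitamin C. Among sites of at least 80% in serum, 19.2% of 2191 promoter sites were still at 50% or more (95% Wilson interval 17.6 to 20.9). The share was 22.5% of 4191 sites in promoter shores (1 to 3 kb from a start), 26.1% of 18760 in exons and 28.9% of 31755 in introns. In intergenic DNA it was 47.8% of 48289 sites (47.3 to 48.2). Neighbouring sites are not independent, so the intervals are narrower than the uncertainty and no test was made between classes.

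**Figure D3:**
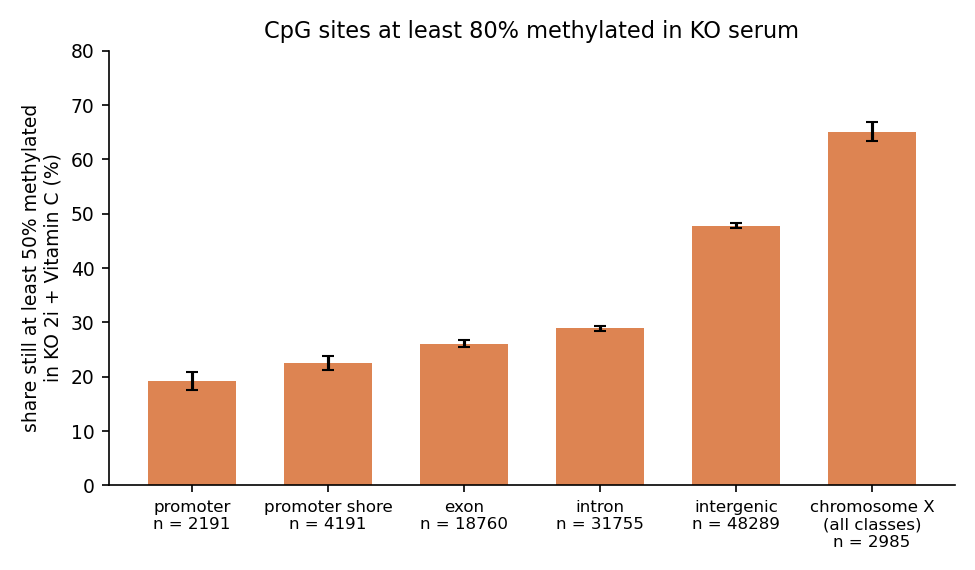
Share (%) of CpG sites of at least 80% in KO serum that were still at 50% or more in KO 2i + Vitamin C, by place relative to genes and for chromosome X; n is the number of such sites and error bars are 95% Wilson intervals for counting sites. The share went from 19.2% in promoters to 47.8% in intergenic DNA and was 65.1% on chromosome X.

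The share that kept 50% also differed with distance from protein-coding gene starts. It was 15.1% of 842 highly methylated sites within 250 bp of a start, 26.5% of 4656 sites from 3000 to 5000 bp away and 36.1% of 16152 sites from 50000 to 100000 bp away. By CpG density it did not rise steadily. It was 41.3% with 1 to 5 CpG dinucleotides in the surrounding 500 bp, 34.8% with 6 to 10 and 35.9% with 11 to 20. With 21 to 30 it was 42.1%, and with 31 to 40 it was 43.0%. Above 40 only 93 sites were highly methylated, and 12.9% of them kept 50%.

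Chromosome X kept more methylation than any autosome. Of 2985 X sites at 80% or more in serum, 65.1% stayed at 50% or more, whereas the 19 autosomes ranged from 30.2% on chromosome 11 to 43.6% on chromosome 3. Mean levels of all 9669 X sites were 37.8% in serum and 20.8% in 2i + Vitamin C. Among sites that were at least 80% in serum in both genotypes, the share on X was 73.1% in KO and 77.0% in WT cells, and on autosomes 42.7% and 50.1%, again with no test.

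Promoters were compared by pooling the reads of all compared sites within 1 kb of a gene start, with at least 5 sites. Of 10799 promoters, 409 (3.79%) were lower in 2i + Vitamin C and 1 (0.00926%) was higher, by the same threshold as for sites. Most had little to lose: 9986 were under 10% in serum. Of the 235 promoters at 50% or more in serum, 231 were called lower, their median was 82.3% in serum and 17.4% in 2i + Vitamin C, and 15 were still at 50% or more. Promoters between 10% and 50% in serum had medians of 17.3% and 2.43%. Reads of 2160 promoters are shared with a neighbouring promoter, and such pairs are not separate evidence.

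**Figure D4:**
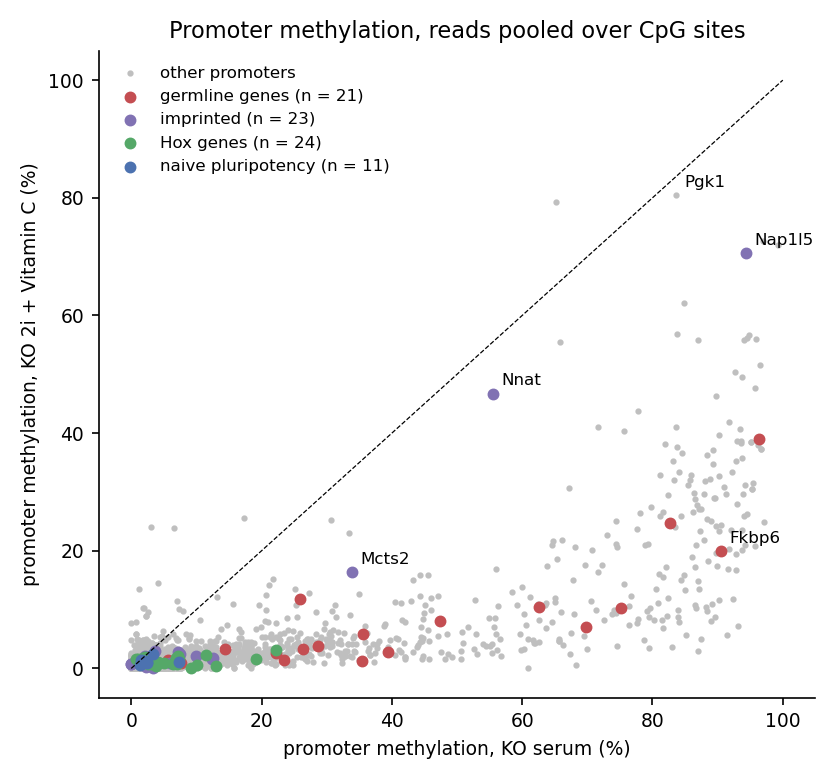
Methylation (%) of 10799 promoters in KO serum (x axis) and KO 2i + Vitamin C (y axis), each from reads pooled over its CpG sites; coloured points are the measured genes of 4 lists and the dashed line marks equal levels. Germline genes (red) are at 39.0% or less in 2i + Vitamin C, while Nap1l5 (94.3% and 70.6%) and Nnat (55.5% and 46.7%) lie nearer to the line.

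The promoters named next, among those with the largest fall, were at 83.1% or more in serum and at 11.8% or less in 2i + Vitamin C. Mb, which encodes myoglobin, was at 93.1% of 144 reads in serum and 7.14% of 84 reads in 2i + Vitamin C, and so fell by 85.91 points (Fisher's exact test, adjusted p = 1.595e-40). Klb, the co-receptor of endocrine FGFs, was at 91.4% and 5.62%. Every CpG level of Mb in serum was above every level in 2i + Vitamin C, as the stretch above shows. Itgad, an integrin alpha chain gene of leukocytes, was at 88.9% and 7.996%, Lcn2, which encodes an iron carrier of innate immunity, at 92.4% and 11.8%, and Mgmt, a DNA repair gene, at 83.1% and 3.56%. Further promoters of this group were 1700018B08Rik (87.4% and 5.04%) and 1700123L14Rik (89.6% and 8.67%).

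At the other end were the 8 promoters with the highest level left among those at 50% or more in serum. Pgk1, a glycolytic enzyme gene on chromosome X, was at 83.7% of 3657 reads in serum and 80.4% of 873 reads in 2i + Vitamin C, a difference of -3.26 points that was not called. In WT cells the same sites were at 5.88% of 289 reads in serum and 2.87% of 523 reads. The level was thus high in both KO libraries and low in both WT libraries. According to the methods of the study, a plasmid named pPGK-puro was put into the cells from which KO and WT clones were picked. Any reads from plasmid copies of this promoter could not be told apart from the gene here, and their part was not tested. Gm17462 was at 65.2% of 92 reads and 79.3% of 574 reads, which was not called. Olfr524, an olfactory receptor gene, was at 99.2% and 71.96%, and the ribosomal protein pseudogenes Rpl29-ps5 and Rps6-ps2 went from 96.9% to 72.6% and from 94.7% to 56.7%. Gm10801 (84.9% and 62.2%) and Gm10800 (83.7% and 56.9%) lie side by side on chromosome 2 where reads piled up. There, 42 sites took 314758 reads or 1.07% of all reads at compared sites in KO 2i + Vitamin C, against 6765 reads (0.0104%) in KO serum. Of the methylated reads at compared sites in KO 2i + Vitamin C, 6.52% lay there. At Gm10800, WT serum had 23373 reads, KO serum 5768 and WT 2i + Vitamin C 3132. Why reads piled up, and the part of this in the levels, was not tested.

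The only promoter called higher was Kcnj11, which encodes a subunit of the ATP-sensitive potassium channel. Its pooled level was 2.99% of 12802 reads in serum and 24.0% of 325 reads in 2i + Vitamin C. The mean over its 12 sites went the other way, from 39.1% to 16.7%, so the direction depends on how sites are weighted.

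Imprinted genes are expressed from 1 parental copy, and methylation at their control regions is kept in most cells. Of 40 genes on the list, 23 had a measured promoter, 1 was called lower, 0 were called higher and 22 were not called, against 3.79% of all promoters called lower. The median of the 23 was 2.70% in serum and 1.34% in 2i + Vitamin C, and 20 of them were under 20% in both media, with Cdkn1c the highest of these at 12.6% and 1.82%. Nap1l5, a paternally expressed gene, was at 94.3% of 881 reads in serum and 70.6% of 558 reads in 2i + Vitamin C and fell by 23.72 points (Fisher's exact test, adjusted p = 4.967e-33). Nnat, a neuronal proteolipid gene, was at 55.5% of 1519 reads (95% Wilson interval 53.0 to 58.0) and 46.7% of 242 reads (40.5 to 53.0), which was not called. Mcts2, an imprinted retrogene, was at 33.9% of 2354 reads and 16.3% of 1764 reads, a difference of -17.62 points that missed the size needed for a call. Peg10 and Sgce share their 10 compared sites, which had 0 methylated of 444 reads in serum (3 counts of the total, which a count of 0 allows, are 0.676%) and 0.753% of 531 reads in 2i + Vitamin C.

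Germline genes, which are silenced in other cells partly by promoter methylation, lost it widely. Of 35 genes listed 21 were measured, and 13 of these were called lower and 0 higher, against 3.79% of all promoters. Unlike most promoters, 15 of the 21 were at 20% or more in serum. Of all promoters at 50% or more in serum 98.3% were called lower, and of those from 10% to 50% it was 30.8%. Their median was 28.7% in serum and 3.28% in 2i + Vitamin C. Fkbp6, a co-chaperone of meiosis and piRNA formation, was at 90.5% of 3427 reads and 20.0% of 807 reads. Taf7l, a germ cell form of a TFIID subunit, was at 75.2% and 10.2%, and Asz1, a piRNA factor of meiotic cells, at 69.7% and 6.99%. Dpep3, a testis dipeptidase, kept the highest level of the list with 39.0% of 95 reads, from 96.4% of 83 reads. Among those not called, Dazl, an RNA-binding regulator of germ cells, was at 22.2% and 2.70%, a difference of -19.52 points from pooled reads, and at 41.8% and 2.88% as means over its sites, a difference of -38.90 points.

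**Figure D5:**
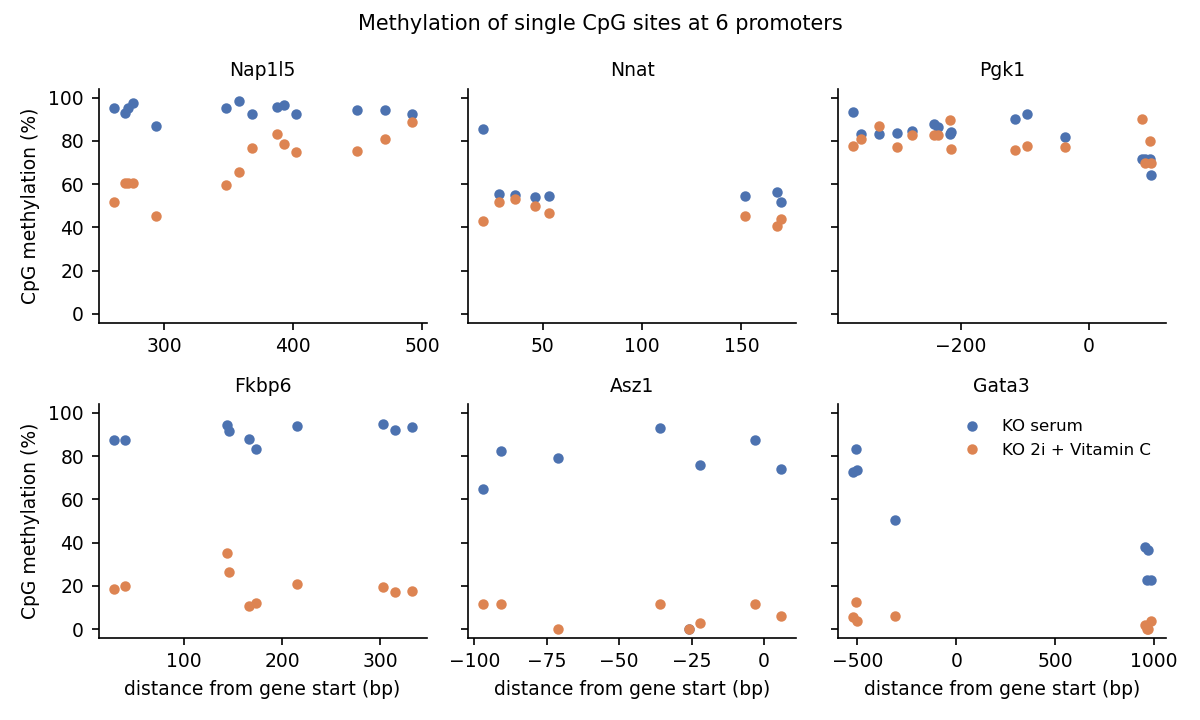
Methylation (%) of single CpG sites by distance (bp) from the gene start at 6 promoters in KO serum (blue) and KO 2i + Vitamin C (orange), 1 library each. At Pgk1 the levels of both media overlap (64.3% to 93.3% and 70% to 90%), at Nap1l5 sites nearer to the start kept less than those farther in, and at Fkbp6 and Asz1 the levels in 2i + Vitamin C reach at most 35.4% and 11.8%.

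The profiles of single sites show that the level left differed along a promoter, from 10.8% to 35.4% at Fkbp6 and from 45.5% to 88.6% at Nap1l5. In the Nap1l5 stretch printed above, the first site, 261 bp inside the gene, was at 95.1% of 41 reads in serum and 51.5% of 33 reads in 2i + Vitamin C. The last site, 492 bp inside, was at 92.3% of 52 reads and 88.6% of 44 reads. Over its 14 sites the median was 94.8% in serum and 70.3% in 2i + Vitamin C.

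Genes of developmental programs mostly had low promoters from the start. Among Hox genes, which pattern the body axis, 24 of 39 were measured and 0 were called, against 3.79% of all promoters called lower, with medians of 6.49% and 1.27%. Hoxd12 was at 22.2% and 3.21%, Hoxc6 at 19.08% and 1.65%, and Hoxa6 at 13.1% and 0.377%. The count depends on the setting: Hoxd12 passed with thinned counts (-23.19 points) and as a mean over sites (-24.92 points), and Hoxc6 with 500 bp either side (-29.32 points), while at 20 reads Hoxc6 was at -4.80 points. The 21 listed primed and early differentiation genes had 13 measured promoters, of which 0 were called, against 3.79% of all promoters called lower. Gata6, a regulator of primitive endoderm, was at 17.0% and 1.23%, Hand1 at 12.4% and 0.738%, and Fgf5, a marker of primed cells, at 13.7% and 2.39%. These changes moved with the setting, Gata6 to -3.11 points at 5 reads, Fgf5 to -0.443 points with 500 bp either side, and Hand1 past the call at -21.03 points as a mean over sites. In the trophoblast list 1 of 6 measured genes was called lower, against 3.79% of all promoters. This was Gata3, a regulator of trophoblast and T cells, at 61.0% of 1265 reads and 5.04% of 635 reads (adjusted p = 8.504e-139, Fisher's exact test). Krt18 (7.18% and 1.74%) and Tead4 (1.90% and 0.563%) of that list were low in both media. The short list of trophoblast markers, with 3 measured genes, holds Gata3, Tead4 and Cdx2 (2.17% and 1.34%).

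The measured promoters of the pluripotent state and of the methylation machinery itself were low in both media. Of 24 listed naive pluripotency genes 11 were measured and 0 called, against 3.79% of all promoters called lower. Prdm14, a factor that holds back differentiation, was at 7.28% and 1.07%, Tdgf1 as given above, and Klf5 at 2.42% and 1.10%. Of 17 listed genes for DNA methylation enzymes and readers 13 were measured and 0 called, against the same 3.79%. Mbd1 was at 11.7% and 2.90%, Mbd4 at 4.71% and 0.721%, and the de novo methyltransferase gene Dnmt3a at 2.92% and 1.22%. In the KAP1 pathway, through which KRAB-ZFPs act, 1 of 21 measured genes was called lower, against 3.79% of all promoters. This was Atf7ip, a partner of the H3K9 methyltransferase SETDB1, at 48.1% of 779 reads and 1.56% of 703 reads (adjusted p = 1.013e-109, Fisher's exact test). Cbx3, a heterochromatin protein gene, was at 4.48% and 0.765%, and Pphln1, of the HUSH complex, at 3.55% and 1.87%.

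Clustered protocadherins, which give neurons their surface identity, had 4 measured promoters of 24, of which 2 were called lower, against 3.79% of all promoters. Pcdha11 was at 66.2% of 213 reads and 3.90% of 333 reads, Pcdhb1 at 25.1% and 3.79%, and Pcdha3, not called, at 18.8% and 0.690%. Pcdhb1 lost its call at -15.26 points both with a coverage minimum of 20 reads and with 500 bp either side of the start. Of 18 listed housekeeping genes 13 were measured and 0 called, against 3.79% of all promoters. Rplp0 was at 6.504% and 1.01%, B2m at 6.22% and 0.837%, and Pgk1 as above. Of the 2-cell stage genes only Eif1a was measured (1.81% and 1.45%). Among markers of fibroblasts, which can serve as feeder cells, 2 of 6 were called lower, against 3.79% of all promoters. Col1a2, a collagen chain, was at 75.6% and 14.3%, and Twist2 at 26.7% and 4.65%, while Lox was at 6.22% and 1.26%. Twist2 lost its call at -19.77 points with a coverage minimum of 5 reads.

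Retrotransposons placed by the study's ETn capture probes, called ETn here, kept more in their internal regions than RLTR4, a murine leukemia virus family. The study used these probes to screen for both ETn and the coding ETnERV elements, which were not told apart here. The internal regions of 44 ETn elements held 154 compared sites with means of 84.4% in serum and 54.6% in 2i + Vitamin C. In 11 RLTR4 elements, 107 sites had means of 62.9% and 16.8%. The ETn regions run from probe to probe and may hold parts of the LTRs, whereas RLTR4 regions were cut by 700 bp at each end. With 250 bp more trimmed from each end, the ETn change went from -29.83 to -22.64 points and the RLTR4 change from -46.09 to -54.52. Of sites at 80% or more in serum, 80.3% of 127 ETn sites (95% Wilson interval 72.5 to 86.3) and 10.5% of 57 RLTR4 sites (4.91 to 21.1) were still at 50% or more, against 36.6% of the 105002 such sites elsewhere. The mean change was below 0 in 44 of 44 ETn elements, from -78.57 to -1.78 points, and in 11 of 11 RLTR4 elements. At 24 sites within the ETn LTR probes, which mark the ends of the elements, the means were 78.4% and 25.03%. At 3 sites, all in 1 RLTR4 LTR probe, they were 97.1% and 64.8%. In these few LTR sites the RLTR4 probe kept more, which describes 1 place and not the family. Sites of 1 element share reads, and no test was made between the families.

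Of 17 elements with at least 5 sites, 14 (82.4%) were called lower (Fisher's exact test on pooled reads). An ETn element on chromosome 4 from 155289491 to 155296543 (mm9, in no protein-coding gene) kept the highest level, with 94.7% of 533 reads in serum and 78.3% of 166 reads in 2i + Vitamin C. It is the element whose sequence is shown above, and its change of -16.43 points missed the size for a call. ETn elements on chromosome 3 from 3424447 and from 7563242 were at 95.2% and 69.5%, and at 90% and 56%. An ETn element on chromosome 11 from 70174802 was at 96.2% and 65.7%. The fifth by level was an RLTR4 element on chromosome 4 from 101535762, at 75.5% of 1108 reads and 43.6% of 736 reads.

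The 5 elements with the lowest level in 2i + Vitamin C differed in where they began. An RLTR4 element on chromosome 10 from 8263933 was at 89.6% of 968 reads in serum and 12.3% of 2209 reads in 2i + Vitamin C. The others were low in serum already: RLTR4 elements on chromosome 12 from 19249006 (32.7% and 10.7%, a call lost at -2.64 points with 250 bp more trimmed and at -15.20 points with thinned counts), on chromosome 18 from 30426166 (6.16% and 0.694%) and on chromosome 8 from 125688616 (10.1% and 0 of 181 reads), and an ETn element on chromosome 1 from 60843369 (21.6% and 0 of 55 reads). A count of 0 methylated reads allows levels of up to 1.66% and 5.45% at the last pair (3 counts of the total). These low serum levels are of KO cells. In WT cells the chromosome 1 element was at 100% of 65 reads in serum and 66.7% of 54 reads in 2i + Vitamin C. The chromosome 12 element was at 63.6% and 30.7% in WT cells, and those on chromosome 18 and chromosome 8 had no WT value.

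Sites within 100 bp of copies of sequences that the study used as KRAB-ZFP targets were described as a further group. The oligos of IAP LTRs, which recur in the windows described next, and of ETn are printed, with their CpG dinucleotides in capitals.

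IAPLTR4 oligo: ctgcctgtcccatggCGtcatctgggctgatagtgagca
IAPLTR1 oligo: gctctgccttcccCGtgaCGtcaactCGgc
ETnERV2-int oligo: ttaCGcCGcagcaaggaaagggaagaa
MMETn oligo: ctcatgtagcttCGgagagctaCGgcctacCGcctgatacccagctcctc

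Levels left near these copies differed widely. Around 21 copies of the IAPLTR4 oligo, 51 sites had means of 93.3% in serum and 64.9% in 2i + Vitamin C. Around 29 copies of the IAPLTR1 oligo, 55 sites had means of 90.6% and 36.6%, and copies ranged from 0 to 81.2% in 2i + Vitamin C. IAP is an LTR retrotransposon known to keep methylation in the early embryo. The MMETn oligo had 28 sites near 10 copies (78.2% and 37.7%) and the ETnERV2-int oligo 5 sites near 2 copies (96.3% and 82.9%). For oligos of MMERGLN, ORR1A2 and RLTR13B1 the means were 92.4% and 73.7% over 10 sites, 90.2% and 35.8% over 35 sites, and 59.6% and 17.2% over 12 sites. With so few copies these values describe the copies measured and not the families.

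On a grid of 1 kb, 26210 windows held at least 5 compared sites, of which 8245 (31.5%) were called lower and 5 (0.0191%) higher. Of 5583 windows at 80% or more in serum, the median in 2i + Vitamin C was 39.9%, the middle 50% lay from 25.5% to 58.3%, and 261 windows (4.67%) were still at 80% or more. Those 261 were less often in a protein-coding gene (13.4%) than all 5583 (52.7%), and a copy of an IAP LTR oligo lay in 16 of them (6.13%) and in 33 of the 5583 (0.591%). Both are descriptions, with no test. In the 29 windows at 80% or more in serum that held an IAPLTR1 copy, the median in 2i + Vitamin C was 77.7%. This is above the 36.6% of sites within 100 bp of IAPLTR1 copies, and the windows are those dense enough in CpG sites to hold 5.

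The 5 windows with the highest level left changed by at most 5.04 points. The window on chromosome 5 from 4383001 was at 99.1% of 110 reads and 96.2% of 80 reads and holds an IAPLTR1 copy, and that on chromosome 11 from 13566001, at 96.5% and 95.8%, holds an IAPLTR4 copy. Part of each is printed above. The window on chromosome 11 from 84875001 lies in Usp32 and was at 95.8% and 95.5%. Windows on chromosome 2 from 80328001 (94.9% of 730 reads and 93.9% of 295 reads) and on chromosome X from 26716001 (98.9% and 93.8%) lay in no protein-coding gene.

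The 5 windows called higher are named because they are few, and were chosen after their values were seen. The largest rise was on chromosome 4 from 43505001, at the start of Ccdc107, from 2.53% of 158 reads to 78.8% of 326 reads. On chromosome 12 from 70462001, near Nemf, the level was 2.64% of 569 reads and 52.3% of 1681 reads. Windows on chromosome 6 from 41193001 (35.7% and 84.7%) and from 105648001, in Cntn4 (39.5% and 75.2%), and on chromosome 5 from 152273001 (64.7% and 85.3%) followed. The Ccdc107 window had no WT value. The other windows were lower in 2i + Vitamin C than in serum in WT cells. In the order named, WT levels were 21.9% and 2.39%, 44.9% and 27.5%, 65.9% and 41.35%, and 88.6% and 77.6%. In KO cells, reads in 2i + Vitamin C exceeded those in serum at all 5, although that library was the less deep, and the part of this was not tested.

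Whether these changes are particular to the KO line can only be asked of 4 libraries. At 400195 sites with at least 10 reads in all of them, the mean difference between the media was -18.29 points in KO and -13.44 points in WT cells, or -4.86 points more in KO. Pooling reads in place of averaging sites turned this to 0.799 points, so its direction depends on the weighting. Pooled reads include the pile-up around Gm10800, with 6.52% of the methylated reads at compared sites in KO 2i + Vitamin C. The part of the pile-up in this value was not tested. At the 78862 sites of at least 80% in serum in both genotypes, the means in 2i + Vitamin C were 46.3% in KO and 50.9% in WT cells, and 43.6% and 50.9% of sites were at 50% or more. Such sites were largely shared: 86.2% of those kept in KO were kept in WT, and 73.8% of those kept in WT were kept in KO. The share kept was lower in KO than in WT cells in each class, from 25.4% and 34.4% in promoters to 54.8% and 60.6% in intergenic DNA.

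Per promoter, the change in KO minus the change in WT cells was tested by a Wald test on pooled reads, with 1 read added to each class. The joined files are KO 2i + Vitamin C and WT serum, so file route coincides with this difference of changes and cannot be told apart from it. Of 10502 promoters, 80 (0.762%) fell by at least 20 points more in KO cells and 6 (0.0571%) by at least 20 points less, at an adjusted p under 0.05. In the 80, medians were 60.3% in KO and 30.5% in WT serum, and 5.77% and 8.40% in 2i + Vitamin C. At 53 of them KO exceeded WT in serum by at least 20 points, and at 69 the genotypes were within 10 points of each other in 2i + Vitamin C. Mgmt was at 83.1% in KO and 38.3% in WT serum, and at 3.56% in both in 2i + Vitamin C.

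The 6 promoters with a smaller fall in KO cells were Peg10, Sgce, Sfi1, Gm17462, Kcnj11 and Plagl1, named because they are few. At the 10 sites shared by Peg10 and Sgce, WT cells had 57.8% of 417 reads in serum and 20.6% of 714 reads in 2i + Vitamin C, whereas KO cells had 0 of 444 and 0.753% of 531. Plagl1, a further imprinted gene, was at 42.4% and 19.6% in WT and 2.38% and 0.833% in KO cells at the 5 sites covered in all libraries. In KO cells both were thus at or near 0 in serum already. Nap1l5 and Nnat were not among the promoters called by this test.

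Of 14 elements that could be tested in this way, 3 (21.4%) fell by at least 20 points more in KO cells. For the ETn element on chromosome 8 from 59285107 the difference was -46.58 points (95% interval -61.14 to -32.03). It was -36.61 points for an RLTR4 element on chromosome 4 from 15163352, whose sequence is shown above, and -29.70 points for the RLTR4 element on chromosome 10 from 8263933. At these 3 elements serum levels were 88.0% to 93.2% in KO and 93.2% to 94.5% in WT cells, and levels in 2i + Vitamin C were 12.3% to 32.2% in KO and 45.7% to 85.7% in WT cells. Unlike at most of the 80 promoters, the genotypes were thus apart in 2i + Vitamin C and close in serum. The ETn element with the highest level left, on chromosome 4 from 155289491, differed by -3.33 points (-10.5 to 3.84), which was not called.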

How the data were processed

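The RRBS-seq libraries of the WT and KO lines were analysed, 1 per genotype and medium. Trimming by the authors used Trim Galore, mapping to mm9 used Bismark, and a custom script joined the strands of each CpG (versions are not given in the sources used here). For each CpG the authors deposited 2 counts, all reads and methylated reads, and the fraction that one is of the other, without normalization for depth. Levels were recomputed from the counts. Positions listed more than once in a file (830 rows in KO 2i + Vitamin C) and sites under 10 reads in either KO library were left out. Read totals were 88376738 (KO serum) and 42684672 (KO 2i + Vitamin C), and intervals are 95% Wilson intervals that cover counting error only.

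Gene starts came from GENCODE M1 on mm9, and all compared sites lay on a CG of that sequence. ETn and RLTR4 elements (424 and 52) were placed by pairing the study's capture probes, and RLTR4 internal regions start 700 bp inside. ETn internal regions run between the probes and were not trimmed further for the LTRs. Target oligos were matched with blastn 2.17.0 (at least 85% identity over 80% of the length, e-value up to 0.01). The oligos too short for this e-value found no copy. Sites, promoters, elements and windows were tested by two-sided Fisher's exact tests and the difference of changes by a two-sided Wald test, each with Benjamini-Hochberg adjustment over all features compared. Fisher's exact tests of sites and promoters were also run on simulated counts, and the Wald test was not. The software was numba 0.67.0, scipy 1.17.1, pandas 2.3.3 and numpy 2.4.6 under Python 3.11.15.

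Named promoters were the 8 called with the largest fall, the 8 with the highest level left among those at 50% or more in serum, up to 6 called higher, imprinted genes at 20% or more, and the 3 members of each other list with the largest change. The lists were imprinted, germline, naive pluripotency, primed and early differentiation, trophoblast, DNA methylation enzyme, KAP1 pathway, 2-cell stage, Hox, clustered protocadherin and housekeeping genes, with fibroblast, ES cell and trophoblast markers. Elements and windows were the 5 highest and, for elements, the 5 lowest by level left, and for KO minus WT the 6 called promoters or elements with the largest difference. One of the promoters with the largest fall is not reported here. The members and lists were chosen with earlier results of these data known. Alternatives were other coverage minimums, thinned counts, pooled reads, sites covered in all 4 libraries, autosomes only, the sites with the highest coverage left out, other sizes of change, other promoter widths and site minimums, and trimmed elements.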

Additional observations from a re-analysis of the deposited data

Results flagged for a closer look

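The 6 promoters or elements with the largest difference between the change in KO and the change in WT cells were marked because that difference passed its own Wald test. All 6 fell more in KO cells, and each value rests on 4 single libraries. The ETn element on chromosome 8 from 59285107 differed by -46.58 points, with 88.0% of 75 reads and 32.2% of 152 reads in KO and 93.8% of 80 reads and 85.7% of 70 reads in WT cells. Wdr20b, a WD-repeat gene, differed by -45.68 points, with 67.3% and 2.52% in KO and 20.2% and 1.51% in WT cells. Pcdha11 differed by -44.87 points, with 66.2% and 3.90% in KO and 18.7% and 1.76% in WT cells. Mgmt differed by -44.20 points, with 95% limits of -52.43 and -35.96. Gm6169 differed by -39.12 points, with 73.8% and 9.31% in KO and 36.6% and 11.4% in WT cells. Otud6a, a deubiquitinase gene, differed by -38.84 points, with 69.9% and 3.36% in KO and 33.1% and 6.13% in WT cells. The 5 promoters had higher levels in KO than in WT serum and similar levels in 2i + Vitamin C, whereas the ETn element had similar levels in serum and a lower level in KO 2i + Vitamin C. The joined files are KO 2i + Vitamin C and WT serum, so the difference of changes for which these 6 were marked cannot be told apart from file route.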

How the results depend on the processing

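With 1 library per condition no library could be left out. No paired analysis was possible because each group has a single library and the labels give no replicate numbers. The number of CpG sites lower in 2i + Vitamin C stayed within 1.5 times its value under all 8 alternatives run (86588 to 150712). The mean change was -19.91 and -16.45 points with coverage minimums of 5 and 20 reads, -18.30 on autosomes and -7.51 with pooled reads, which weight sites by their coverage. The share of highly methylated sites at 50% or more was 37.4% and 35.6% with these minimums, 35.8% on autosomes and 31.03% of sites at 60% or more in serum. Sites higher numbered 215 and 61 with the minimums, 82 after thinning and 242 with a change of 10 points. Promoters lower numbered 681 with a change of 10 points and 742 with at least 3 sites. Promoters higher numbered 0 with either minimum, after thinning and with a change of 30 points, and 5 with a change of 10 points. Kcnj11 turned to -45.34 points at 20 reads, -32.49 after thinning and -22.38 as a mean over sites, and Ccdc107 took its place under the last and with 500 bp either side, where Kcnj11 was at 5.37 points. ETn changed by -32.68 points with pooled reads and -22.64 with 250 bp more trimmed, and RLTR4 by -50.61 and -54.52, and by -51.98 at sites covered in all 4 libraries. KO minus WT was -5.06 and -4.63 points with the minimums and 0.799 with pooled reads, and promoters with a larger fall in KO numbered 51 at 20 reads. Of 653 values of named genes and elements under alternatives, 622 stayed on the same side of the threshold, 15 lost the call, 13 gained it and the 3 of Kcnj11 turned. Direction was compared only where a value was called in the main or the alternative setting. Some alternatives, such as another size of change, leave the value itself as it was. The causes were not tested.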
